A study of Mus musculus with 24 samples.

Results

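Trib3 and 9 further genes of the ATF4 stress response (Chac1, Ddit4, Asns, Psat1, Nupr1, Eif4ebp1, Slc3a2, Psph and Shmt2) were followed in gastrocnemius, the large calf muscle, of male C57BL/6N mice. Members were all probes whose current gene symbol, taken from the accession in the scanner files or else from the gene name there, was one of the 10 genes. They were 14 of the 41174 different probes on the arrays, and 12 of the 14 passed the filter on dim signals, with at least 1 probe left for every gene. In each of the 3 diet groups 8 mice were measured, 1 mouse per array. All mice were 3 months old at the start and ate their diets for 8 weeks. The control diet, cHF, was a high-fat diet based on corn oil, with about 35% lipid by weight. In cHF+F a concentrate of n-3 fatty acids, with 46% DHA and 14% EPA, took the place of 15% of the dietary lipids, and in cHF+ROSI the cHF diet held 10 mg of rosiglitazone, a PPARγ agonist, per kg. Mice of every group were fasted for 10 h during the light phase, were then given Chow, a low-fat standard diet, overnight and were killed the next morning, so the muscles were all taken in a re-fed state. Mice were housed 2 per cage, and which mice shared a cage is not given in the sources used here.

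ATF4 is a transcription factor whose mRNA is translated more strongly when the initiation factor eIF2α is phosphorylated, which happens when amino acids run short, when unfolded proteins collect in the endoplasmic reticulum, when mitochondria are impaired or when heme is lacking. Its targets restore amino acid supply and restrain growth, and they include enzymes of serine, glycine and asparagine synthesis, amino acid transporters and inhibitors of the mTORC1 pathway. Trib3 is a pseudokinase among these targets that is known to bind the insulin-signalling kinase Akt and to act back on ATF4 itself. In skeletal muscle several of the same genes also answer to fasting, glucocorticoids and insulin, since Ddit4 is a known glucocorticoid target and Eif4ebp1 a known target of the FOXO factors.

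Many ATF4 targets carry a C/EBP-ATF response element, and the start regions of the members were searched for its letters, TGATGNAA, on both strands. RefSeq windows of 300 bases (250 before and 50 after the annotated transcription start, build GRCm38.p6) were found for 9 of the 10 members. The letters occurred in the windows of 4 members, Trib3, Chac1, Asns and Nupr1, and in 3.97% of all 32851 promoter windows of the mouse table. The stretch from 220 bases before to 25 bases after the start is shown for these 4 because the later results set Trib3 against Asns, Chac1 and Nupr1, and all 4 hold these letters. Capitals mark the element, which reads TTNCATCA where it lies on the opposite strand.
Trib3, chr2:152344036-152344280, minus strand: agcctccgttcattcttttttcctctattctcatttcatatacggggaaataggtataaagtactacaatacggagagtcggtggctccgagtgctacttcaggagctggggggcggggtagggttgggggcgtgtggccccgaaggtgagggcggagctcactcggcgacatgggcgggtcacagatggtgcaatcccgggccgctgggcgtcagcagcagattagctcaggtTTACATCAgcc
Asns, chr6:7693185-7693429, minus strand: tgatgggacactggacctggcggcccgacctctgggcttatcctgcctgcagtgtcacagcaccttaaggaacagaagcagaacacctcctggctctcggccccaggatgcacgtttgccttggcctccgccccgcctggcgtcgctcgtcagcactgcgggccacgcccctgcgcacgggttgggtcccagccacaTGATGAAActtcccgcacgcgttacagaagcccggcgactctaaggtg
Chac1, chr2:119351022-119351266, plus strand: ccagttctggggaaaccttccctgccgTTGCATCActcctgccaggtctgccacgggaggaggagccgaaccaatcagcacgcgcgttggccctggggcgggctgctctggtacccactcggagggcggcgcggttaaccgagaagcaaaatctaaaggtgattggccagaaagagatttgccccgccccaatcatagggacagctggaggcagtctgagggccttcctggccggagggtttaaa
Nupr1, chr7:126625446-126625690, minus strand: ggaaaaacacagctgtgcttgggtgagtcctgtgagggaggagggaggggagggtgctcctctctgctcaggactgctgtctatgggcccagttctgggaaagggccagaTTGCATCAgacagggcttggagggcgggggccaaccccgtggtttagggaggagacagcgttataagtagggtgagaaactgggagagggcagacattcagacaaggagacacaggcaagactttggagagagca
The first base of the element lay 23 bases before the start in Asns, at -110 in Nupr1 and at -193 in Chac1, and in Trib3 it was base 15 of the annotated transcript. No match was found in the windows of Ddit4, Psat1, Slc3a2, Psph and Shmt2, which says only that these letters are not in those 300 bases.

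The values are log2 ratios of Cy5, the RNA of the mouse, over Cy3, a reference pool that was the same on every array, after loess normalization within the array. A value of 0 therefore means a level equal to the pool, and only values of the same probe are compared. One array, that of cHF+ROSI replicate 4, had 91.1% of its spots well above background in Cy5, compared with 30.4% to 61.3% for the other 23. Each of 8 slides carried 1 array of each diet at a fixed place, so that diet and place on the slide cannot be told apart. All 10 markers of muscle fibres (Acta1, Ckm, Myh4 and others) were well above background on every array. Differences between diets were tested with limma over the 15958 probes that passed the filter, and adjusted p-values are those of Benjamini and Hochberg over all of them. In bulk muscle, fewer cells of a type and less RNA per cell cannot be told apart.

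Trib3 had a higher mean in cHF+F than in cHF, and its level spread widest under cHF+F, but the difference did not pass the test over all probes. For the brighter of its 2 probes (chr2:152029060-152029119 on build mm8, minus strand), the log2 ratio in cHF was lowest at -0.75, had a median of -0.33 and was highest at -0.09. In cHF+F the lowest value was -0.43, the median 0.14 and the highest 1.19, and in cHF+ROSI these values were -0.38, -0.22 and -0.01. The 2 groups cHF and cHF+F thus overlapped, but 6 of the 8 cHF+F mice lay above every cHF mouse, and the cHF+F mice with replicate numbers 4 and 8 lay among the cHF mice. The SD was 0.57 in cHF+F (n = 8), against 0.24 in cHF (n = 8) and 0.16 in cHF+ROSI (n = 8). The mean of cHF+F exceeded that of cHF by 0.61 on the log2 scale, which is 1.53-fold, with a 95% interval of 0.26 to 0.96, an unadjusted limma p of 0.00128 and an adjusted p of 0.388. The limma intervals and p-values use a spread shared by all diets, although the SDs of Trib3 differed between them. A two-sided exact permutation test of the difference between cHF+F and cHF, over all 12870 regroupings of the 16 arrays, gave p = 0.0113. This exact test was planned for Trib3 and was run on all 14 member probes in each of the 3 comparisons, with no adjustment for their number. In the main processing, the exact p-values not given here were all above 0.05.

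No probe on the array passed an adjusted p of 0.05 in this comparison (0 of 15958 by limma, 0%), while 1094 probes (6.86%) had an unadjusted p under 0.05, and Trib3 was the only one of the 12 member probes among them. By unadjusted p the Trib3 probe ranked 50 among the 15958 probes. Within slides, cHF+F was above cHF on 6 of 8 slides, with differences from -0.23 to 1.51, and with the slide as a block in the fit the limma adjusted p was 0.126. The size of the difference moved with the processing and with single arrays. It was 0.99 with the processed signals of the scanner software and 0.43 without the dim slides 1 to 3. With those slides left out, and so fewer mice per diet, the exact permutation p was 0.0952. With any one array left out the difference lay between 0.48 and 0.71, the lowest of these without cHF+F replicate 2. The exact permutation p then lay between 0.00311 and 0.0263.

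The dimmer Trib3 probe (chr2:152029730-152029789 on mm8, minus strand), 670 bases from the brighter one, did not pass the filter, since its mean signal over background was 1.84 in Cy3. It was well above background in Cy5 on 21 of the 24 arrays, on all 8 arrays of cHF+F and of cHF+ROSI and on 5 of cHF. Its log2 ratio lay between -0.29 and -0.00 in cHF, with a median of -0.11, and between -0.15 and 0.44 in cHF+F, with a median of 0.08. The mean difference was 0.20, with p = 0.0171 in the two-sided exact permutation test and a limma adjusted p of 0.412 over all probes without a filter. In the authors' own table of normalized values, the difference of this probe was 0.17, with an exact permutation p of 0.233. For the brighter probe the exact permutation p stayed under 0.05 there. Over the 24 arrays, after diet means were subtracted, the 2 probes correlated at r = 0.57, and at 0.36 without the cHF+F mice with replicate numbers 2 and 7.

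For cHF+ROSI the difference in Trib3 did not pass the test either. The mean of cHF+ROSI lay 0.17 above that of cHF (95% interval -0.18 to 0.52, limma adjusted p = 0.996), and the dimmer probe lay 0.05 below. By slide, the brighter probe was higher in cHF+ROSI on 7 of 8, with differences from -0.06 to 0.56, and the dimmer one lower on 5 of 8. The exact permutation p was 0.130 for the brighter probe and 0.441 for the dimmer one. Between the 2 interventions, cHF+F exceeded cHF+ROSI by 0.45 (95% interval 0.10 to 0.80, unadjusted limma p = 0.0143, adjusted p = 0.661), with an exact permutation p of 0.0474. This p was not stable, since leaving out any one of 13 of the 16 mice (all but cHF+F replicates 4, 6 and 8) gave an exact permutation p between 0.0516 and 0.0904. The dimmer probe differed by 0.25, with an exact permutation p of 0.0137. Of the 8 cHF+F mice, 6 lay above every cHF+ROSI mouse and the other 2 below every one. The 3 comparisons share their groups, so they are not independent of each other.

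**Figure D1:**
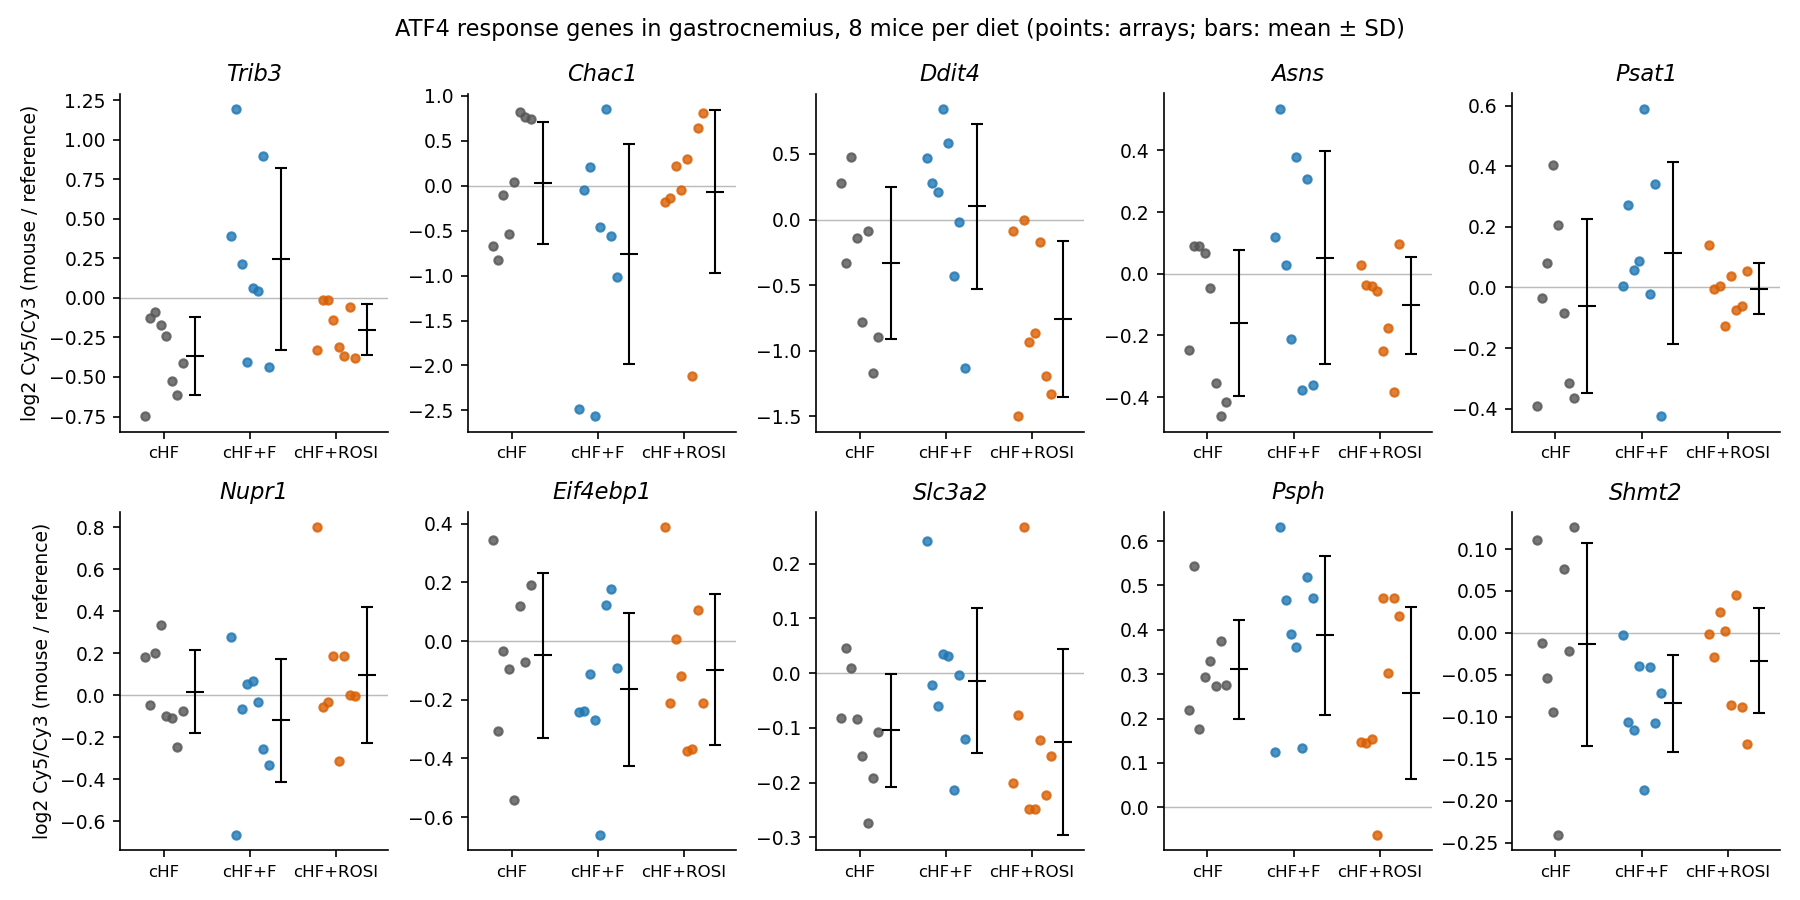
Log2 ratio of mouse over reference pool (y axis, Cy5 over Cy3) of the brightest probe of each of the 10 genes, by diet (x axis), with 1 point per array in replicate order and the mean ± SD beside it (n = 8 per diet). Trib3 lies above all 8 cHF mice in 6 cHF+F mice, Chac1 has 3 mice under -2, and each panel has its own y axis.

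Nupr1, a small stress-induced chromatin protein, gave no difference between diets that passed the test. Its values ran from -0.25 to 0.33 in cHF, from -0.67 to 0.28 in cHF+F and from -0.31 to 0.80 in cHF+ROSI, and the medians were -0.06, -0.05 and -0.00. The 3 groups overlapped throughout. The mean difference from cHF was -0.14 in cHF+F (95% interval -0.40 to 0.13, limma adjusted p = 0.938) and 0.08 in cHF+ROSI (95% interval -0.18 to 0.34, limma adjusted p = 0.996).

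Ddit4, also called REDD1, restrains mTORC1 through the TSC complex, and it was the member with the largest difference between the 2 interventions. Its values ran from -1.17 to 0.48 in cHF with a median of -0.24, from -1.13 to 0.84 in cHF+F with a median of 0.24, and from -1.50 to -0.01 in cHF+ROSI with a median of -0.90. Most cHF+F mice were thus high and most cHF+ROSI mice low, with cHF between them, and 5 of the 8 cHF+F mice lay above every cHF+ROSI mouse. The mean of cHF+F exceeded that of cHF+ROSI by 0.86 (1.82-fold, 95% interval 0.30 to 1.42, limma adjusted p = 0.561), and cHF+F was the higher on 7 of 8 slides. The exact permutation p of this difference was 0.0165, and the slide as a block gave a limma adjusted p of 0.124. No probe passed an adjusted p of 0.05 between the interventions either (0 of 15958 by limma, 0%), and 1065 probes (6.67%) had an unadjusted p under 0.05, among them 2 of the 12 member probes, those of Ddit4 and Trib3.

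Measured from cHF, the differences of Ddit4 pointed in opposite directions and did not pass the test. They were 0.43 for cHF+F (95% interval -0.12 to 0.99, limma adjusted p = 0.855) and -0.43 for cHF+ROSI (95% interval -0.99 to 0.13, limma adjusted p = 0.996). Their exact permutation p-values were 0.171 and 0.164. Within slides, cHF+ROSI lay below cHF on all 8 slides, by 0.02 to 1.17, whereas cHF+F lay above cHF on 5 of 8. With the slide as a block the unadjusted limma p-values were 0.0404 and 0.0429, and the adjusted ones 0.384 and 0.507.

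**Figure D2:**
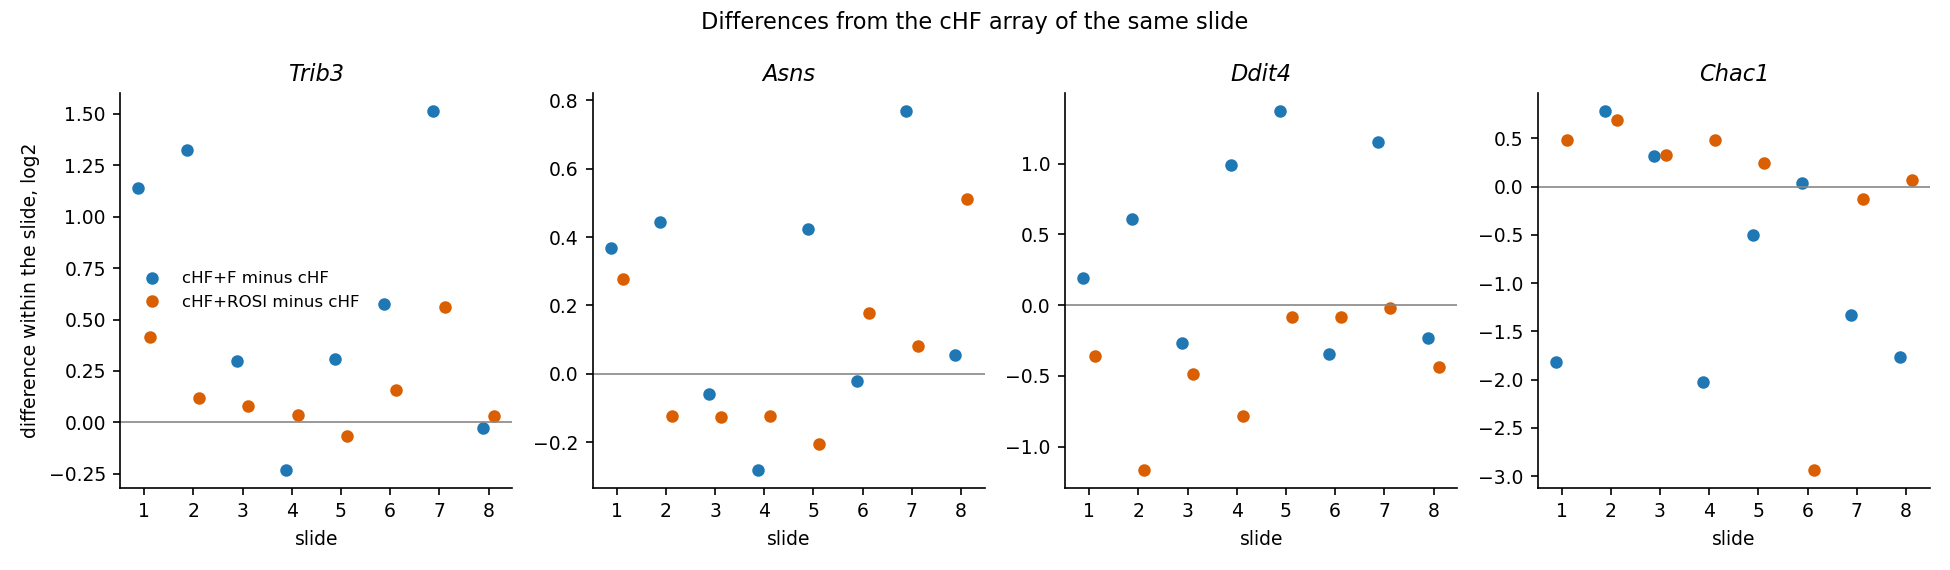
Difference in log2 ratio between the intervention array and the cHF array of the same slide (y axis) on each of the 8 slides (x axis), for Trib3, Asns, Ddit4 and Chac1. Blue points are cHF+F minus cHF and orange points are cHF+ROSI minus cHF. The 8 orange points of Ddit4 are all below 0, and the blue points of Trib3 reach from -0.23 to 1.51.

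Eif4ebp1 encodes 4E-BP1, the translation inhibitor that mTORC1 switches off. Its brighter probe ran from -0.54 to 0.34 in cHF, from -0.66 to 0.18 in cHF+F and from -0.37 to 0.39 in cHF+ROSI. The 2 Eif4ebp1 probes followed each other across mice (r = 0.78 within diets, 24 arrays), and none of their 4 differences from cHF, which lay between -0.12 and -0.01, passed the test (limma adjusted p from 0.952 to 0.997). Those of the dimmer probe turned positive under some alternatives.

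Chac1, an enzyme that degrades glutathione, was the most variable member. Its values ran from -0.83 to 0.82 in cHF with a median of -0.03, from -2.57 to 0.86 in cHF+F with a median of -0.51, and from -2.12 to 0.81 in cHF+ROSI with a median of 0.09. Under -2 lay cHF+F replicates 1 and 4, at -2.48 and -2.57, and cHF+ROSI replicate 6, at -2.12, where the next cHF+ROSI mouse stood at -0.18. The probe's signal over background averaged 166 in Cy5, and it was saturated on 0 arrays and well above background in Cy5 on all 24. Its within-diet SD of 0.96 was larger than that of 99.8% of the kept probes, whose median SD was 0.15. The mean of cHF+F lay 0.79 below that of cHF, with a 95% interval from -1.68 to 0.10 and a limma adjusted p of 0.807, so the difference was within the spread between mice, and its direction was opposite to that of Trib3. The mean difference of cHF+ROSI was -0.09 (95% interval -0.98 to 0.79, limma adjusted p = 0.996), and it was 0.20 without cHF+ROSI replicate 6.

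For the enzymes that make asparagine and serine, no difference passed the test. Asns, asparagine synthetase, ran from -0.46 to 0.09 in cHF with a median of -0.15, from -0.38 to 0.53 in cHF+F with a median of 0.07, and from -0.38 to 0.10 in cHF+ROSI with a median of -0.05. Of the cHF+F mice, 4 lay above every cHF mouse and the others among them. The mean difference was 0.21 in cHF+F (95% interval -0.03 to 0.46, limma adjusted p = 0.824) and 0.06 in cHF+ROSI (95% interval -0.19 to 0.30, limma adjusted p = 0.996).

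Psat1, the phosphoserine aminotransferase of serine synthesis, ran from -0.39 to 0.41 in cHF, from -0.43 to 0.59 in cHF+F and from -0.13 to 0.14 in cHF+ROSI. Its mean difference from cHF was 0.18 in cHF+F (limma adjusted p = 0.859) and 0.06 in cHF+ROSI (limma adjusted p = 0.996), and this probe passed the filter narrowly, with a mean signal over background of 2.04 in Cy3 against a minimum of 2. Psph, which removes the phosphate in the last step of serine synthesis, was read by 2 probes whose starts lie 20 bases apart. Across mice these correlated at r = 0.16 within diets, and at r = 0.82 with slide means removed as well. The cHF+F means of the 2 probes exceeded those of cHF by 0.08 and 0.13 (limma adjusted p = 0.949 and 0.826). Shmt2, which turns serine into glycine in mitochondria, was the steadiest member, with a within-diet SD of 0.09, and its difference from cHF was -0.07 in cHF+F (95% interval -0.17 to 0.03, limma adjusted p = 0.885) and -0.02 in cHF+ROSI (limma adjusted p = 0.996).

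Slc3a2 encodes the CD98 heavy chain, the partner of several amino acid transporters. Its brighter probe ran from -0.27 to 0.05 in cHF, from -0.21 to 0.24 in cHF+F and from -0.25 to 0.27 in cHF+ROSI, with a mean difference from cHF of 0.09 in cHF+F (95% interval -0.05 to 0.23, limma adjusted p = 0.899). Its dimmer probe, which did not pass the filter and lies 5994 bases away, gave -0.20 for the same comparison, with an exact permutation p of 0.00684 and a limma adjusted p of 0.329 over all probes without a filter. In cHF+ROSI it differed from cHF by -0.15, with an exact permutation p of 0.0266 and a limma adjusted p of 0.511. The 2 probes of Slc3a2 thus disagreed in sign, and across mice their r was -0.06 within diets and 0.08 with slide means removed as well.

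Counted by the brightest probe of each gene, 6 of the 10 members had a higher and 4 a lower mean in cHF+F than in cHF, with a median difference of 0.08, against 0.00 over all kept probes. In cHF+ROSI 4 were higher and 6 lower than in cHF, with a median of -0.02 against -0.01 over all. None of the 12 member probes had an unadjusted p under 0.05 for cHF+ROSI against cHF, where the background was 750 of 15958 probes (4.70%) and 0 probes (0%) passed an adjusted p of 0.05 by limma. The groups of all 12 member probes overlapped in each of the 3 comparisons. Over all kept probes, the share whose groups did not overlap was 0.0689% for cHF+F against cHF, 0.0188% for cHF+ROSI against cHF and 0.0376% for cHF+F against cHF+ROSI.

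**Figure D3:**
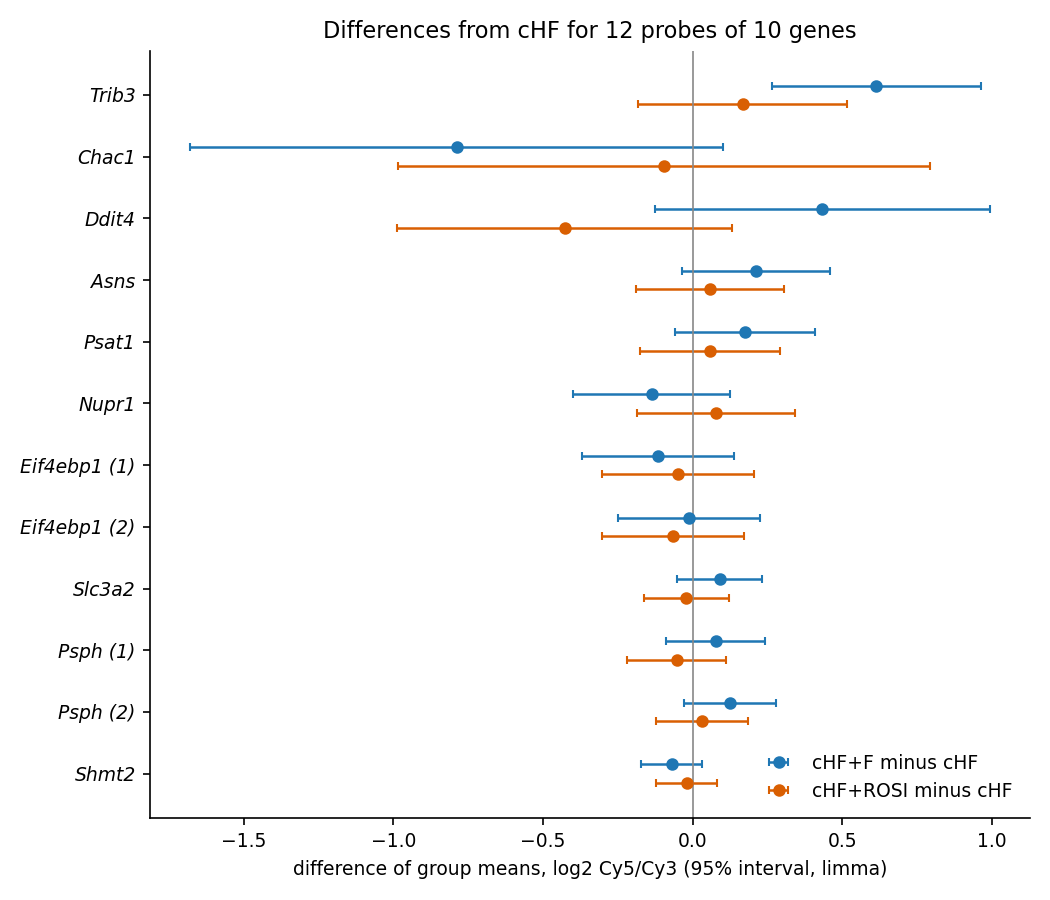
Difference of diet means in log2 ratio (x axis) for the 12 member probes that passed the filter (y axis, with 1 for the brighter and 2 for the dimmer probe of a gene), as cHF+F minus cHF in blue and cHF+ROSI minus cHF in orange, with 95% intervals from limma (8 arrays per diet). The interval of Trib3 in cHF+F, from 0.26 to 0.96, is the only one of the 24 that leaves out 0.

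To see which members varied with Trib3 from mouse to mouse, each probe was set against the brighter Trib3 probe over the 24 arrays after the diet means had been subtracted, in 13 relations. Asns followed Trib3 most closely, with r = 0.70 (permutation p = 0.00229) and rho = 0.66 (permutation p = 0.00379). Psat1 came next, with r = 0.50 (permutation p = 0.0454) and rho = 0.52 (permutation p = 0.0245). In a limma fit with diet and Trib3 level over the other 15957 probes, the adjusted p was 0.435 for Asns and 0.446 for Psat1. No probe passed an adjusted p of 0.05 there (0 of 15957, 0%), and 1654 (10.4%) had an unadjusted p under 0.05.

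The relation remained, at a lower r, when the 2 mice with the highest Trib3 were left out. Without cHF+F replicates 2 and 7 the r was 0.59 for Asns and 0.47 for Psat1. Within single diets (8 mice each, given as a description) it was found in 2 of the 3, with r = 0.83 in cHF and 0.80 in cHF+F for Asns and 0.76 and 0.51 for Psat1, whereas in cHF+ROSI, where Trib3 varied least, it was -0.21 for Asns and -0.38 for Psat1. The difference between diets in r was not tested. With slide means also subtracted r was 0.70 for Asns and 0.58 for Psat1. With the processed signals of the scanner software r was lower, at 0.45 for Asns and 0.36 for Psat1. When single arrays were left out, r lay between 0.61 and 0.77 for Asns. For Psat1 it then lay between 0.36 (without cHF+F replicate 8) and 0.62. In limma the Asns relation passed an adjusted p of 0.05 with array weights (adjusted p = 0.0307) and with Cy5 alone (adjusted p = 0.0106), a setting in which 5436 of the probes passed, those of Slc3a2 (r = 0.60) and the dimmer ones of Psph (r = -0.61) and Eif4ebp1 (r = -0.57) among them.

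Beside these relations stood a relation to fat cells. The summed level of 7 adipocyte markers (Adipoq, Plin1, Fabp4 and others, all 7 detected) ran from -0.98 to 0.70 in cHF, from -1.31 to 1.02 in cHF+F and from -0.87 to 0.33 in cHF+ROSI, as means of log2 ratios. Within diets it correlated with Asns at r = 0.64 and with Psat1 at r = 0.77 but with Trib3 at r = 0.14. With the adipocyte level removed, an alternative chosen after seeing the data, r with Trib3 was 0.80 for Asns and 0.61 for Psat1. These values follow from the pairwise correlations given above and are no separate test.

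The other members correlated less closely with Trib3. The r was 0.28 for the brighter Slc3a2 probe (rho = 0.39), 0.18 for Chac1 (rho = -0.07), 0.11 for Ddit4 (rho = 0.15), -0.26 for Nupr1 (rho = -0.09) and -0.24 for Shmt2 (rho = -0.26), with permutation p-values from 0.0719 to 0.783. The dimmer Slc3a2 probe, which did not pass the filter, gave r = 0.38 (permutation p = 0.0824). With slide means removed as well, the r was 0.14 for the brighter and 0.49 for the dimmer Slc3a2 probe. For Psph the brighter probe gave r = 0.19 and the dimmer one r = -0.40 (permutation p = 0.00517), rho = -0.51 (permutation p = 0.00542). With slide means removed as well, these r were -0.06 and -0.28. For Eif4ebp1 the 2 probes gave -0.03 and 0.19. Over all other probes the percentiles 5 and 95 of r were -0.41 and 0.44, and among the kept members only the Asns and Psat1 probes lay outside them.

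**Figure D4:**
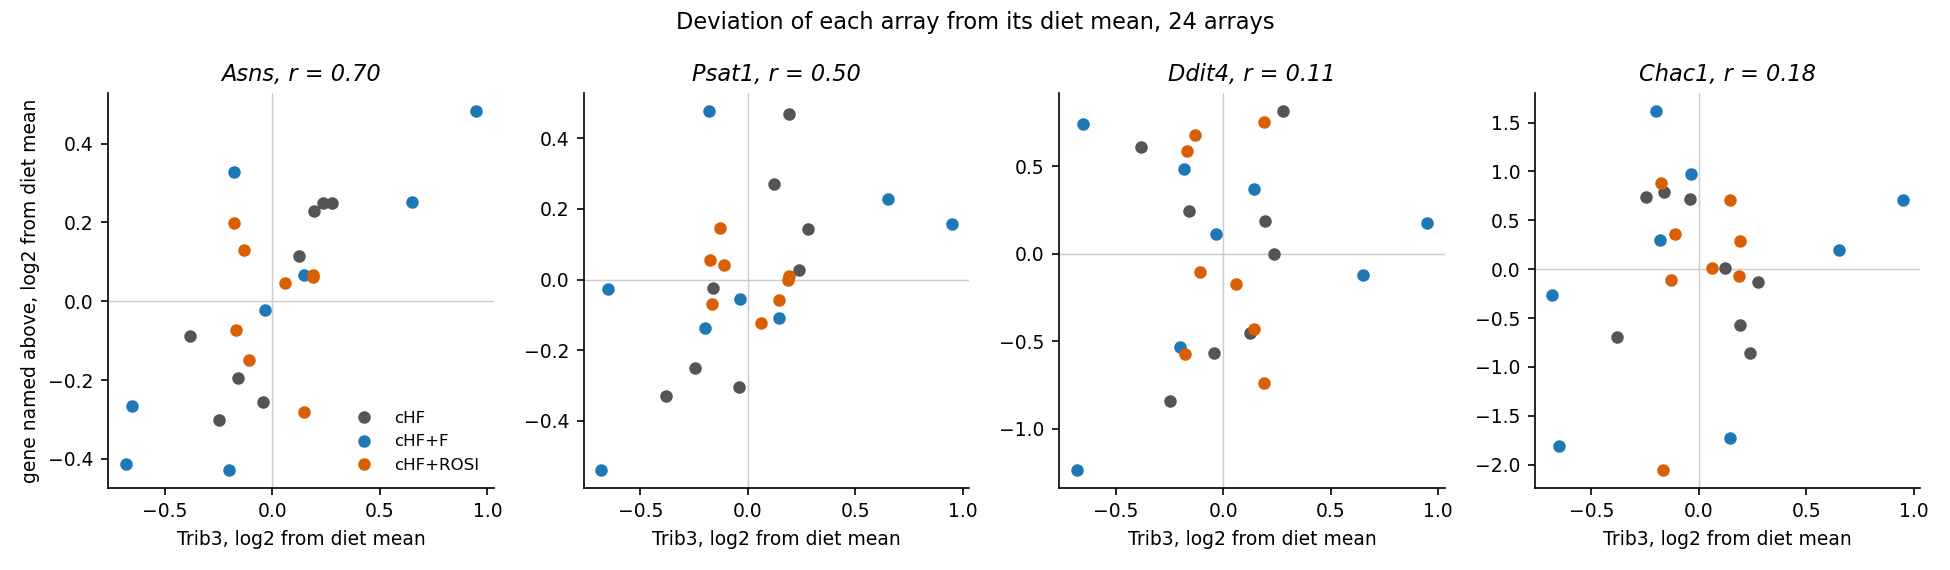
Deviation of each of 24 arrays from its diet mean in log2 ratio, for Trib3 (x axis) against Asns, Psat1, Ddit4 and Chac1 (y axis), coloured by diet. Asns is higher where Trib3 is higher over the cHF and cHF+F arrays (r = 0.83 and 0.80) but not over the cHF+ROSI arrays (r = -0.21), and over all 24 arrays r is 0.18 for Chac1 and 0.11 for Ddit4.

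Among all named probes, the 5 with the highest r to Trib3 were 4833420G17Rik (0.72), the fatty acid hydroxylase Cyp4b1 (0.72), the DNA glycosylase Ogg1 (0.71), the Mediator subunit Med27 (0.71) and Asns (0.70). The 3 with the lowest were C2cd2l (-0.74), the proprotein convertase Pcsk7 (-0.73) and the sialic acid esterase Siae (-0.73), each over 24 arrays. None of these 8 had a limma adjusted p below 0.435.

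Asns and Psat1 also followed each other (r = 0.74). Over the 64 pairs of probes of different members the median within-diet r was 0.11, with 4 pairs above 0.5 and 2 below -0.5. The same share over pairs of other probes was not computed. With slide means removed as well, Trib3 with Asns stood at 0.70 and Asns with Psat1 at 0.84. Ddit4 with Nupr1 went from 0.51 to 0.13 and Eif4ebp1 with Shmt2 from 0.57 to 0.22. Some pairs became stronger instead. Chac1 went from 0.26 to 0.65 with the brighter Eif4ebp1 probe and from -0.45 to -0.60 with Slc3a2, and Psat1 with Nupr1 from 0.19 to 0.54. With diet means alone subtracted, the lowest pair was Psat1 with Shmt2, both enzymes of serine and glycine metabolism, at -0.63 (-0.55 with slide means removed as well). Within diets Psat1 correlated with the adipocyte level at r = 0.77 and Shmt2 at r = -0.54. The part of that level in this pair was not tested.

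**Figure D5:**
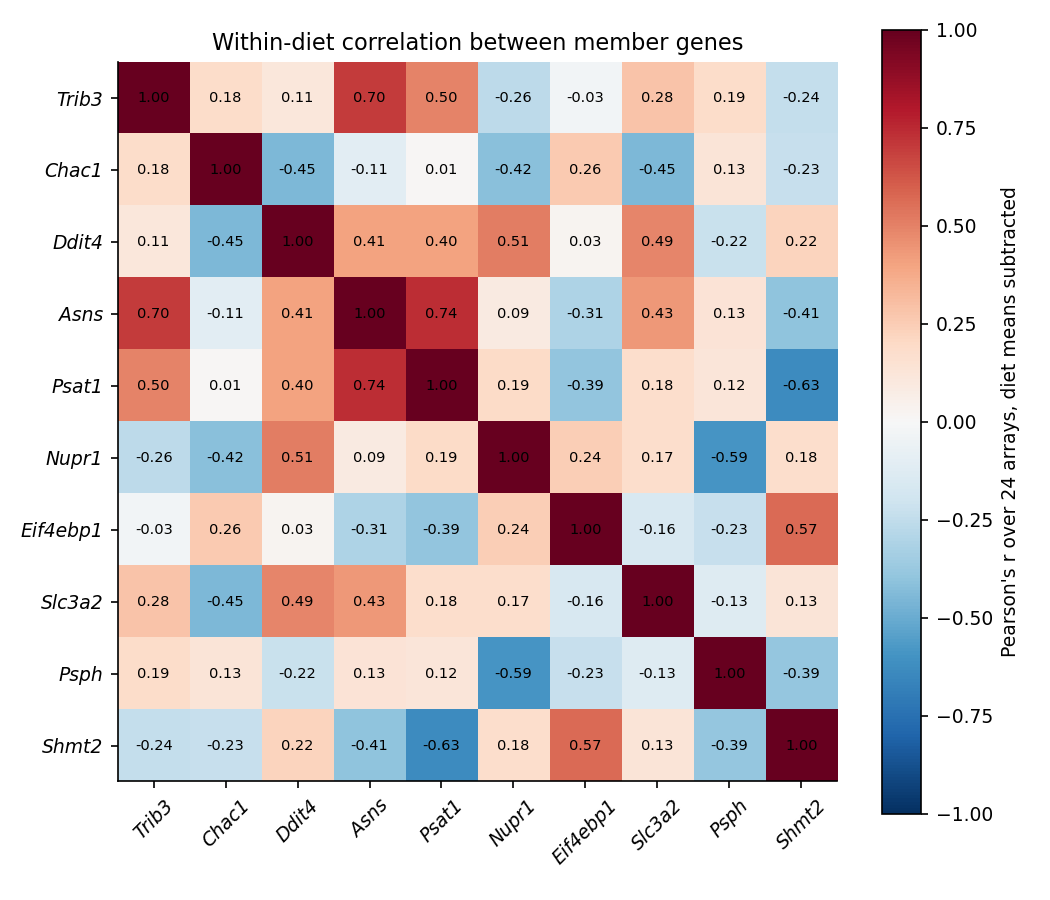
Pearson's r between the brightest probes of the 10 members (both axes) over 24 arrays after subtraction of diet means, red for positive and blue for negative values. Among Trib3, Asns and Psat1 the values are 0.70, 0.74 and 0.50, and Psat1 and Shmt2 stand at -0.63.

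The wider ATF4 response showed no common direction. Of 38 further genes on the list 26 were measured above the filter. The genes not kept included Fgf21, Gdf15, Mthfd2 and Slc7a11. In cHF+F against cHF 14 had a higher and 12 a lower mean, with a median of 0.01. In cHF+ROSI 8 were higher and 18 lower, with a median of -0.04. Over all kept probes, 50.4% had a higher mean than cHF in cHF+F and 45.3% in cHF+ROSI. Atf4 mRNA itself differed from cHF by 0.02 in cHF+F (limma adjusted p = 0.992) and by -0.13 in cHF+ROSI (limma adjusted p = 0.996), and its within-diet r with Trib3 was 0.47.

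An unadjusted limma p under 0.05 was found for 3.85% of these 26 genes in cHF+F against cHF, where 7.35% of all genes had one. The shares were 7.69% against 4.93% in cHF+ROSI and 15.4% against 6.77% between the interventions. In cHF+F against cHF, 1 of the 26 genes had such a p, Cebpb, a bZIP partner of ATF4, at -0.33 (limma adjusted p = 0.553). In cHF+ROSI these were the stress factors Ddit3 (CHOP) at 0.23 and Atf3 at 0.61 (limma adjusted p = 0.996 for both), both higher than in cHF. Between the interventions Atf3 differed by -0.90 and Ddit3 by -0.24 (limma adjusted p = 0.561 and 0.589), while Aars1, a tRNA synthetase, and Xpot, the tRNA export factor, were higher by 0.18 and 0.17 (limma adjusted p = 0.724 and 0.74). Trib3 and Ddit3 had means in opposite order between the interventions, and their within-diet r was -0.13. The median within-diet r with Trib3 over the 26 genes was 0.30, against 0.02 over all other probes, and the highest were the tRNA synthetases Sars1 (0.62) and Aars1 (0.60).

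Among the genes that lie before ATF4, the kinases and subunits of eIF2, 0 of 8 measured had an unadjusted p under 0.05 in either intervention against cHF. Between the interventions 25% of the 8 had one, against 6.77% of all genes. These were the heme-regulated kinase Eif2ak1 and the subunit Eif2s2, higher in cHF+F by 0.11 and 0.115 (limma adjusted p = 0.74 and 0.742). Of 17 chaperones and factors of the endoplasmic reticulum, 12 had a higher mean in cHF+F than in cHF (median 0.09) and 15 in cHF+ROSI (median 0.08). Over all kept probes these shares were 50.4% and 45.3%. An unadjusted p under 0.05 was found for 11.8% of the 17 in cHF+F, against 7.35% of all genes, and for none in cHF+ROSI. The 2 in cHF+F were Hspa5 (BiP) at 0.30 (limma adjusted p = 0.568) and Sdf2l1 at 0.22 (limma adjusted p = 0.709). Their within-diet r with Trib3 was -0.19 and -0.10. Of 7 mitochondrial stress genes, Hspa9, a mitochondrial chaperone, differed by -0.15 between cHF+ROSI and cHF (limma adjusted p = 0.996). In that comparison 14.3% of the list and 4.93% of all genes had an unadjusted p under 0.05. Between the interventions these shares were 28.6% and 6.77%. There Hspa9 and the chaperonin Hspd1 were higher in cHF+F by 0.20 and 0.19 (limma adjusted p = 0.434 and 0.6).

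Of 14 genes around Akt and mTORC1, 2 (14.3%, against 7.35% of all genes) had an unadjusted p under 0.05 in cHF+F against cHF. They were the Trib3 relative Trib2 at -0.26 and the 4E-BP1 relative Eif4ebp2 at 0.21 (limma adjusted p = 0.661 and 0.725). In cHF+ROSI the share was 7.14%, against 4.93% of all genes, and the kinase Mtor differed from cHF by -0.13 (limma adjusted p = 0.996). Between the interventions it was 21.4%, against 6.77% of all genes. There Mtor and the S6 kinase Rps6kb1 were higher in cHF+F by 0.17 and 0.16, and Trib1 differed by -0.38 (limma adjusted p = 0.589, 0.64 and 0.74).

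Before slide means were removed, Ddit4 correlated across mice with the mean levels of the glucocorticoid-responsive genes and of the ER chaperone genes. In neither intervention did any of the 8 measured glucocorticoid-responsive genes have an unadjusted p under 0.05 against cHF. Between the interventions the kinase Sgk1 was higher in cHF+F by 0.27 (limma adjusted p = 0.74). It was the only one with an unadjusted p under 0.05 there (12.5% of the list, against 6.77% of all genes). Within diets the mean level of these 8 genes correlated with Ddit4 at r = 0.79, and that of the ER chaperone genes at r = 0.75. Slide means were not removed for these mean levels, and their r was not set against that of all other probes. Among the 8 single genes the r with Ddit4 differed widely. It was 0.76 for Fkbp5, 0.59 for Cdkn1a, 0.59 for Tsc22d3, 0.39 for Per1, 0.35 for Sgk1, 0.35 for Cebpd, 0.03 for Klf9 and -0.43 for Klf15. With slide means removed as well, these were 0.65, 0.25, 0.48, 0.22, 0.49, 0.32, -0.38 and -0.06. With Trib3 the mean glucocorticoid-responsive level correlated at r = 0.47. With this level removed, an alternative chosen after seeing the data, r between Ddit4 and Trib3 was -0.47 in place of 0.11, and that between Asns and Trib3 was 0.60. These values too follow from pairwise correlations and are no separate test.

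Markers of other tissue parts differed between diets beside these results. Over all kept probes, 50.4% had a higher mean in cHF+F than in cHF and 45.3% in cHF+ROSI than in cHF. Between the interventions 54.2% were higher in cHF+F. Of 8 slow-fibre markers 7 had a lower mean in cHF+F than in cHF (median -0.43), and 4 of them, Myh7, Tnni1, Tnnc1 and Tpm3, had an unadjusted p under 0.05 (limma adjusted p from 0.554 to 0.711), against 7.35% of all genes in that comparison and 4.93% in cHF+ROSI against cHF. The summed slow-fibre level ran from -0.30 to 0.65 in cHF, from -1.04 to 0.40 in cHF+F and from -1.14 to 0.57 in cHF+ROSI, and its within-diet r was -0.09 with Trib3, 0.56 with Ddit4 and -0.23 with Chac1. All 10 general muscle fibre markers had a lower mean in cHF+ROSI than in cHF (median -0.15), 7 of them a higher mean in cHF+F than in cHF (median 0.09) and 9 a higher mean in cHF+F than in cHF+ROSI (median 0.21), none with an unadjusted p under 0.05 by limma. Their mean level ran from -0.30 to 0.55 in cHF, from -0.10 to 0.47 in cHF+F and from -0.89 to 0.41 in cHF+ROSI, and its within-diet r was -0.72 with Slc3a2, -0.54 with Ddit4 and -0.31 with Trib3. All 6 endothelial markers had a lower mean in cHF+F, among them Cldn5 at -0.65 (limma adjusted p = 0.121), and 5 of 6 in cHF+ROSI. Cldn5 and Cdh5 had an unadjusted p under 0.05 in cHF+F, and Cldn5, Kdr and Tek in cHF+ROSI (limma adjusted p = 0.996 for each of these 3). The endothelial level correlated with Trib3 at r = 0.26. The 6 measured liver markers had higher means than cHF in both interventions, with medians of 0.28 in cHF+F and 0.66 in cHF+ROSI, where Apoa2 at 0.69 and Mup1 at 1.51 had an unadjusted p under 0.05 (limma adjusted p = 0.996 for both). The liver level correlated with Trib3 at r = 0.25 and with Ddit4 at r = -0.37. The 8 macrophage markers had lower means in cHF+F (median -0.15), with r = 0.29 to Trib3 and 1 of them, Csf1r, at an unadjusted p under 0.05 (limma adjusted p = 0.711), and the 3 measured blood markers lower means in cHF+ROSI (median -0.47), with r = 0.06 to Ddit4 and 1 of them, Hba-a1, at an unadjusted p under 0.05 (limma adjusted p = 0.996). The part of these markers in the differences of Trib3, Ddit4, Chac1 and Slc3a2 was not tested.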

How the data were processed

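Gastrocnemius RNA was hybridised to 24 two-colour Agilent arrays. Per the file headers, the deposited scanner files hold spot and background intensity values from Feature Extraction 10.5.1.1, and the submitters' processing notes name version 10.5.5.1. The authors also deposited 1 table of normalized log2 values, of which 16 columns (cHF and cHF+F) served as an alternative and 8 columns of a combined diet outside this series were not used. Probe coordinates are on build mm8. Median signals were background-corrected (normexp, offset 50) and normalized by loess (span 0.3) with limma 3.58.1 in R 4.3.3. Flagged spots were missing, and probes needed 4 unflagged arrays per group and a mean signal over background of 2 in both channels. Symbols came from accessions for 12577 kept probes, from the gene names in the scanner files for 2512 and were absent for 869. Diets were compared in 1 limma model over all 24 arrays, two-sided. Permutation p-values of correlations used 100000 resamples within diets. Scripts were tested on simulated data. The number of arrays limits precision.

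The members and gene lists were chosen with earlier results of these data known. All probes of the 10 members are named, list genes only where an unadjusted p was under 0.05, besides Atf4 and Ddit3, and the 5 probes with the highest and the 3 with the lowest r to Trib3. Other genes (Sars1 and example markers) were chosen after their values were seen. So was the step of setting all measured glucocorticoid-responsive genes beside Ddit4. One gene of the lists is not reported here. The replicate number is the slide per the file headers. Same-numbered arrays deviated together at r = -0.11 to 0.64, above 0.1 in 18 of 24 pairs, so the slide was used as a block beside the main model.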

Additional observations from a re-analysis of the deposited data

Results flagged for a closer look

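Of 36 sets of 8 mice (12 member probes in 3 diets), 3 held a value separated from the other 7 mice by a gap that exceeded the 95% limit of Dixon's test. Chance alone flags about 1 in 20 such sets. All 3 were in cHF+ROSI. They were Chac1 in replicate 6 at -2.12, with a gap of 0.662 of the group's range, Slc3a2 in replicate 3 at 0.266, with a gap of 0.666, and Nupr1 in replicate 1 at 0.80, with a gap of 0.55. Without these mice the difference from cHF was 0.20 for Chac1, -0.08 for Slc3a2 and -0.02 for Nupr1.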

How the results depend on the processing

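No member probe passed an adjusted p of 0.05 between diets under any alternative run, and the Trib3 difference of cHF+F from cHF kept its direction in all, from 0.428 without slides 1 to 3 to 0.985 with processed signals. Over all probes, the count at an adjusted p of 0.05 for cHF+F against cHF was 2 with mean spot signals, 3 without a filter, 6 with the replicate block (slide) and 12 with array weights in place of 0, and 0 to 2 when single arrays were left out (1 without cHF replicate 8, 2 without cHF+F replicate 8). Between the interventions that range was also 0 to 2 (1 without cHF+F replicate 7, 2 without cHF+ROSI replicate 7). At an unadjusted p under 0.05 the counts for cHF+F against cHF, cHF+ROSI against cHF and cHF+F against cHF+ROSI were 87, 82 and 95 with median centring, 222, 439 and 130 with Cy5 alone, 3705, 3594 and 2104 without a filter, 1691, 1400 and 1702 with array weights, 1933, 1524 and 2094 with the block and 1265, 755 and 938 by the methods' t-test, which passed 0 probes after Benjamini-Hochberg adjustment in each comparison. The relation with Trib3 was passed by 5436 probes with Cy5 alone and by 160 with array weights in place of 0. The cause of these shifts was not tested. The authors' table holds no cHF+ROSI column used here, so it gave cHF+F against cHF alone.

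The exact permutation test of Trib3 lost its threshold without slides 1 to 3, with differences of 0.428 for cHF+F against cHF (p = 0.0952) and 0.284 for cHF+F against cHF+ROSI (p = 0.294). Both tests then had fewer mice per diet as well as smaller differences. The second one also lost it with mean spot signals (0.432), loess span 0.1 (0.439) and Cy5 alone (0.476), and ranged from 0.311 to 0.543 when single arrays were left out.

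Some values changed sign, none of them from a value that passed the test. For cHF+ROSI against cHF, no background correction gave Psph 0.00959, processed signals gave Asns -0.00644, Psat1 -0.0367 and Eif4ebp1 (dimmer probe) 0.218, and median centring gave Asns -0.0709, Psat1 -0.000257 and Nupr1 -0.0458. Cy5 alone gave Asns -0.159, Psat1 -0.0929, Nupr1 -0.256 and Psph 0.0766, array weights gave Nupr1 -0.00303 and Slc3a2 0.0295, and omission of slides 1 to 3 gave Psat1 -0.00371 and Psph 0.0134. For cHF+F against cHF, the dimmer Eif4ebp1 probe gave 0.16 with processed signals, 0.0292 with median centring, 0.109 with Cy5 alone and 0.0383 with array weights, and Slc3a2 gave -0.0476 with Cy5 alone. For cHF+F against cHF+ROSI, Eif4ebp1 gave -0.0582 (dimmer probe, processed signals) and, for the brighter probe, 0.0248 with Cy5 alone, 0.0629 with array weights and 0.0489 without slides 1 to 3, and Cy5 alone gave Psph -0.0264 and -0.146 and Shmt2 0.0493.

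The r with Trib3 changed sign for the brighter Eif4ebp1 probe to 0.0951 (processed signals), 0.101 (authors' table), 0.227 (median centring), 0.262 (Cy5 alone), 0.13 (replicate block), 0.254 (without slides 1 to 3) and 0.0232 (adipocyte level removed), and for the dimmer one to -0.014 (median centring), -0.569 (Cy5 alone) and -0.272 (authors' table). It changed for Nupr1 to 0.00326 (median centring), 0.423 (Cy5 alone) and 0.072 (without slides 1 to 3), for Shmt2 to 0.256 (median centring), 0.451 (Cy5 alone) and 0.00931 (authors' table), for Psph to -0.354 (Cy5 alone) and -0.0641 (replicate block), for Chac1 to -0.0765 (diet means not subtracted) and for Ddit4 to -0.472 (glucocorticoid level removed). The removals of the adipocyte and glucocorticoid levels were chosen after seeing the data.

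When single arrays were left out, the differences of cHF+ROSI from cHF crossed 0 for Chac1 (-0.22 to 0.199), Eif4ebp1 (-0.119 to 0.00736), Slc3a2 (-0.0768 to 0.000592), Psph (-0.00459 to 0.0848), Shmt2 (-0.0518 to 0.000559) and Nupr1 (-0.0218 to 0.137). Eif4ebp1 crossed 0 for cHF+F against cHF (-0.0685 to 0.0521) and against cHF+ROSI (-0.115 to 0.00449 and -0.00256 to 0.121 for its 2 probes). The r with Trib3 crossed 0 for Eif4ebp1 (-0.172 to 0.0597), Nupr1 (-0.38 to 0.0182), Psph (-0.0253 to 0.263) and Ddit4 (-0.114 to 0.263). With the block, no call of a member at an adjusted p of 0.05 changed. Dim signals limit the second Trib3 and Slc3a2 probes most.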

Other observations

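Chac1 and Ddit4 each had close companions of their own across mice, found by the measure used for Trib3 (Pearson's r over 24 arrays, diet means subtracted) and chosen after the values were seen. The 5 named probes closest to Chac1 were Fbxo32 (0.85), the muscle ubiquitin ligase atrogin-1, the ER-phagy receptor Retreg1 (0.81), the deubiquitinase Otub2 (0.78), Pdcd7 (0.78) and 5730480H06Rik (0.75), and with slide means also subtracted their r lay between 0.78 and 0.84. Fbxo32 differed from cHF by -0.31 in cHF+F (limma adjusted p = 0.896) and by -0.58 in cHF+ROSI (limma adjusted p = 0.996). The 5 closest to Ddit4 were Dusp11 (0.86), 6030422H21Rik (0.82), Rhoa (0.80), Ptges2 (0.79) and the stress kinase Map3k6 (0.78), of which Dusp11 kept 0.82 and the others lay between 0.47 and 0.59 with slide means subtracted. The 5 closest to Asns were Col18a1 (0.83), Cyp2e1 (0.76), Anxa5 (0.76), Ptp4a1 (0.76) and Dram1 (0.76).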
